A study of Mus musculus with 9 samples.

Results

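Integrins are cell surface receptors built from 1 alpha and 1 beta subunit, and laminins are basement membrane proteins built from an alpha, a beta and a gamma chain. Genes were taken by symbol, as those starting with Itga or Itgb and those named Lama, Lamb or Lamc followed by a number from 1 to 5. This gave 42 of the 26214 genes in the deposited table. Of these, 27 encode integrin subunits and 11 encode laminin chains. The other 4 (Itgb1bp1, Itgb1bp2, Itgb3bp and Itgbl1) share the letters of the name but encode no integrin subunit.

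The study compared adipose stromal cells (ASCs), the mesenchymal progenitors of subcutaneous adipose tissue, with fibro-adipogenic progenitors (FAPs), those of skeletal muscle, by bulk RNA sequencing. There were 3 ASC libraries and 2 FAP libraries from C57Bl/6J mice on day 1 after NaCl injection of the quadriceps. Another 3 libraries held FAPs taken from the quadriceps on day 1 after glycerol injection (injured FAPs). The last, 1 library, held CD31+CD45+ cells from glycerol-injected quadriceps. The methods describe 3 replicates per condition, so the FAP group has 1 library fewer here. They also describe male mice of 8 to 12 weeks, and magnetic depletion of CD31+ and CD45+ cells followed by selection for Sca-1. The reporting summary describes replicates made from cells pooled over 3 animals, and calls the replicates of the study biological. It does not say whether each library had its own pool, so p-values measure only the spread between these libraries. The strain was the same in all groups, tissue and cell type were changed together between ASCs and FAPs, and the CD31+CD45+ library had no replicate and entered no test.

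Laminins hold basement membranes together and are bound by integrins of the alpha3, alpha6 and alpha7 type, by dystroglycan and by other receptors. Other integrins bind collagens, fibronectin and further ligands with an RGD motif, or counter-receptors on blood and vessel cells. In muscle, the laminin alpha2 chain links the basement membrane to the fibre surface, and stromal cells are a source of basement membrane components.

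The values are read counts per gene divided by 1 factor per library. Recovered totals were 27481573, 27349184 and 27402102 reads in ASCs, 24052508 and 24164447 in FAPs, 26968235, 26698572 and 27028114 in injured FAPs and 13091077 in CD31+CD45+ cells. A value worth 3 reads, used below as the floor for a gene at 0, lay between 2.29 and 4.71 depending on the library. A gene was called where limma's adjusted p was under 0.05 and the log2 fold change was beyond 0.58, on log2(value + 1), which understates changes of low genes. In bulk RNA, fewer cells of a type and less RNA per cell cannot be told apart. Groups whose libraries do not overlap were common. Of all 13601 genes tested, every ASC library was above both FAP libraries for 36.8% and below them for 35.4%. For injured FAPs relative to FAPs these shares were 40.4 and 43.6%, and for injured FAPs relative to ASCs 36.2 and 35.6%.

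A mean of at least 10 over the 8 libraries compared was reached by 35 of the 42 genes. The 7 below it were Itgax, Itgae, Itgad, Itgb6, Itgb2l, Lama1 and Itgb1bp2, and Itgad and Itgb2l were at 0 in all 8 libraries. In ASCs relative to FAPs, 14 of the 35 were called higher and 10 lower, where 23.4% and 23.8% of all 13601 genes tested were. In injured FAPs relative to FAPs, 7 were higher and 18 lower, against 24.9% and 27.7% of all genes. In injured FAPs relative to ASCs, 13 were higher and 15 lower, against 25.0% and 25.8% of all genes. The first 2 comparisons share the FAP libraries, and the 3 comparisons share groups in pairs. Of the genes called higher in ASCs and in injured FAPs relative to FAPs, Itga3, Itga4 and Itgb2 were at 0 in both FAP libraries. Their calls take these zeros as measured levels, which was not tested. Itga4 and Itgam reached the mean of 10 only through injured FAPs, with means of 2.75 and 1.76 in ASCs and 0 and 7.09 in FAPs.

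The median log2 fold change of the 35 genes was 0.29 in ASCs relative to FAPs, -0.62 in injured FAPs relative to FAPs and -0.19 in injured FAPs relative to ASCs, where the medians of all genes tested were 0.00, -0.05 and 0.02. The 22 integrin subunits tested had medians of -0.25, -0.62 and 0.54. Of the 22 integrin subunits, 7 were called higher and 7 lower in ASCs relative to FAPs, 6 and 11 in injured FAPs relative to FAPs, and 11 and 6 in injured FAPs relative to ASCs. These were 31.8 and 31.8%, 27.3 and 50%, and 50 and 27.3%. The shares of all genes tested were 23.4 and 23.8%, 24.9 and 27.7%, and 25.0 and 25.8%.

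**Figure D1:**
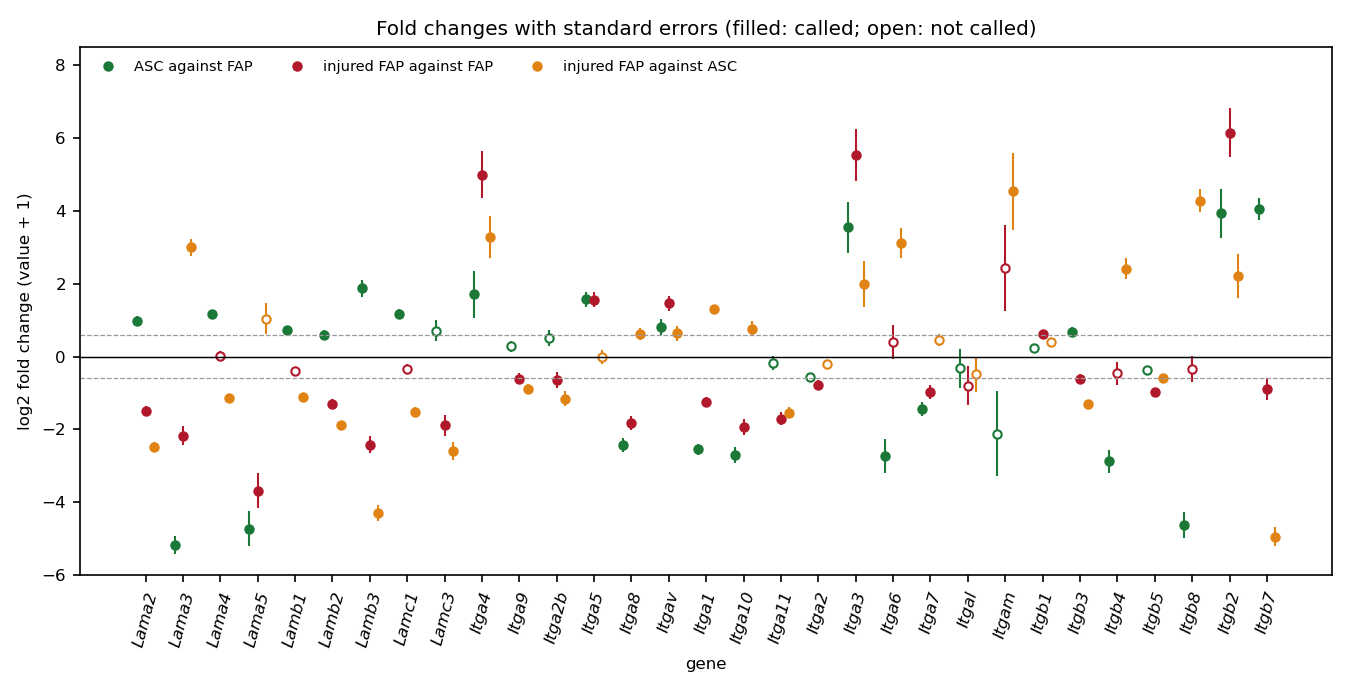
Log2 fold changes on log2(value + 1) of 9 laminin chains and 22 integrin subunits (x axis) in 3 comparisons; points are limma estimates, bars are standard errors, filled points were called and dashed lines mark 0.58 in both directions. Lama2, Lama4, Lamb1, Lamb2 and Lamc1 lie above 0 in ASCs relative to FAPs, where under quantile normalization Lamb2 came to -0.15, and Lama2 and Lamb2 lie below 0 in injured FAPs relative to FAPs.

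The laminin alpha chains set which receptors a laminin can bind. Lama2, the chain of muscle laminin, was at 46999, 39836 and 49812 in ASCs, 24662 and 21847 in FAPs and 8993, 7439 and 8188 in injured FAPs. All 3 ASC libraries were above both FAP libraries, and all 3 injured FAP libraries were below them. The Lama2 log2 fold change was 0.97 (SE 0.13, limma adjusted p = 0.000160) in ASCs relative to FAPs and -1.504 (SE 0.13, limma adjusted p = 6.69e-06) in injured FAPs relative to FAPs. For Lama2 it was -2.47 (SE 0.12, limma adjusted p = 9.08e-08) in injured FAPs relative to ASCs.

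Lama4, the alpha chain of vessel, fat and nerve basement membranes, was at 18393, 18239.5 and 22284 in ASCs, 8796 and 8739 in FAPs and 8999, 9213 and 8626 in injured FAPs. ASCs were above both other groups, and the FAP and injured FAP libraries overlapped. The Lama4 log2 fold change was 1.16 (SE 0.11, limma adjusted p = 1.36e-05) in ASCs relative to FAPs and -1.13 (SE 0.10, limma adjusted p = 4.62e-06) in injured FAPs relative to ASCs, and 0.03 (SE 0.11, limma adjusted p = 0.835) in injured FAPs relative to FAPs.

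Lama5, the alpha chain of many mature epithelial and vessel basement membranes, was at 130.4, 30.6 and 36.4 in ASCs, 1366 and 1476 in FAPs and 126, 102 and 102 in injured FAPs. The FAP libraries stood above every ASC and injured FAP library, and ASC replicate 1 stood above the other ASC libraries. Lama5 fell by 12.9-fold in the group means of injured FAPs relative to FAPs, with a log2 fold change of -3.68 (SE 0.48, limma adjusted p = 8.54e-05). In ASCs relative to FAPs it was -4.72 (SE 0.48, limma adjusted p = 1.91e-05), and -5.37 without ASC replicate 1. The Lama5 difference of injured FAPs relative to ASCs, 1.04 (SE 0.43, limma adjusted p = 0.0541), missed the call. It was called without ASC replicate 1 (1.69, limma adjusted p = 5.10e-06), with a common 75th percentile (1.16, limma adjusted p = 0.0289) and with the replicate block (limma adjusted p = 0.0351).

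Lama3, a chain of epithelial laminin, was at 7.90, 6.80 and 11.3 in ASCs, 327 and 357 in FAPs and 79.2, 70.5 and 74.7 in injured FAPs. The 3 groups did not overlap, with FAPs highest and ASCs lowest. The Lama3 log2 fold change was -5.17 (SE 0.26, limma adjusted p = 1.83e-07) in ASCs relative to FAPs, -2.18 (SE 0.26, limma adjusted p = 4.34e-05) in injured FAPs relative to FAPs and 2.997 (SE 0.23, limma adjusted p = 1.66e-06) in injured FAPs relative to ASCs. With a pseudocount of 8 the first and last were -4.40 and 2.32. Lama1, the chain of early embryonic basement membranes, ranged from 0 to 7.53 and was not tested.

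Among the beta chains, Lamb1 was at 18406, 17144 and 20220.3 in ASCs, 11686 and 10774 in FAPs and 8772, 8326 and 8571 in injured FAPs. ASCs were above FAPs and FAPs above injured FAPs with no overlap, although the second difference was under the fold threshold. The Lamb1 log2 fold change was 0.73 (SE 0.11, limma adjusted p = 0.000208) in ASCs relative to FAPs, -0.39 (SE 0.11, limma adjusted p = 0.00788) in injured FAPs relative to FAPs and -1.12 (SE 0.09, limma adjusted p = 3.16e-06) in injured FAPs relative to ASCs.

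Lamb2, the beta chain of the neuromuscular junction and of vessel and muscle basement membranes, was at 50533, 39217 and 48887 in ASCs, 29686 and 31073 in FAPs and 12839, 12297 and 12159 in injured FAPs. The order was ASCs, FAPs and injured FAPs, again with no overlap. The Lamb2 log2 fold change was 0.60 (SE 0.13, limma adjusted p = 0.00274) in ASCs relative to FAPs, -1.29 (SE 0.13, limma adjusted p = 1.46e-05) in injured FAPs relative to FAPs and -1.89 (SE 0.12, limma adjusted p = 3.81e-07) in injured FAPs relative to ASCs. Lamb3, an epithelial chain, was at 395, 265 and 416 in ASCs, 90.3 and 101 in FAPs and 17.3, 17.8 and 16.0 in injured FAPs. It followed the same order, with 1.87 (SE 0.23, limma adjusted p = 7.54e-05), -2.42 (SE 0.23, limma adjusted p = 1.07e-05) and -4.29 (SE 0.21, limma adjusted p = 8.86e-08) in the same 3 comparisons.

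Lamc1, the gamma chain shared by most laminins, was at 77990.2, 79742 and 95137 in ASCs, 38989.5 and 35289 in FAPs and 30962, 28044 and 29277 in injured FAPs. ASCs were above both FAP groups, and every injured FAP library was below FAPs, with a difference that missed both limits of the call. The Lamc1 log2 fold change was 1.18 (SE 0.14, limma adjusted p = 4.52e-05) in ASCs relative to FAPs, -0.34 (SE 0.14, limma adjusted p = 0.0511) in injured FAPs relative to FAPs and -1.51 (SE 0.12, limma adjusted p = 2.31e-06) in injured FAPs relative to ASCs.

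Lamc3, a gamma chain of nerve, retina and other sites, was at 656, 537 and 1185 in ASCs, 416 and 498 in FAPs and 149, 114 and 109.8 in injured FAPs. Injured FAPs were below every other library, and ASC replicate 3 was the highest. The Lamc3 log2 fold change was -1.88 (SE 0.29, limma adjusted p = 0.000243) in injured FAPs relative to FAPs and -2.59 (SE 0.26, limma adjusted p = 9.74e-06) in injured FAPs relative to ASCs. In ASCs relative to FAPs it was 0.71 (SE 0.29, limma adjusted p = 0.0528), which missed the limit on p. It was called without ASC replicate 1 (0.81) or 2 (0.95), with edgeR (0.75) and with DESeq2 (0.81).

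**Figure D2:**
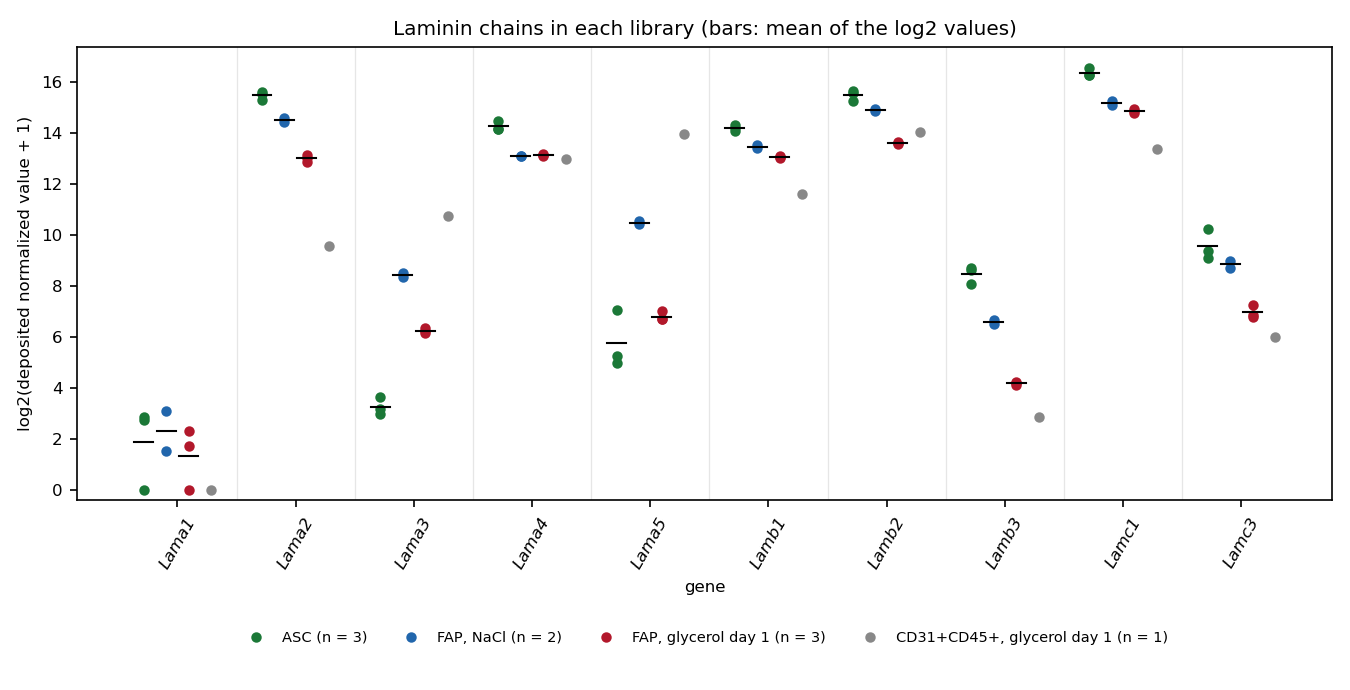
Values of 10 laminin chains (x axis) as log2(value + 1) in each library; points are libraries, colours are groups and bars are means of the log2 values. Lama2, Lamb2 and Lamc1 are lowest in injured FAPs among the 3 groups compared, and Lama5 is at 15675 in the CD31+CD45+ library.

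The higher values of Lama2, Lama4, Lamb1, Lamb2 and Lamc1 in ASCs lost their calls relative to FAPs under quantile normalization. Lamb2 then reversed to -0.15 in ASCs relative to FAPs (limma adjusted p = 0.200), and Lama2, Lamb1, Lama4 and Lamc1 came to 0.14, 0.04, 0.44 and 0.35, all below the fold threshold. In injured FAPs relative to ASCs, Lama4, Lamb1 and Lamc1 came to -0.52, -0.52 and -0.36 and lost their calls too, while Lama2 and Lamb2 came to -1.78 and -1.09 and kept theirs. The Lamb2 call in ASCs relative to FAPs also ended with edgeR (0.56) and without ASC replicate 1 (0.53), ASC replicate 3 (0.55) or FAP replicate 1 (0.56). Under quantile normalization the count of genes higher in ASCs relative to FAPs was 7 instead of 14. Scaling to a common 75th percentile moved the median of all genes to -0.20 in ASCs relative to FAPs, -0.15 in injured FAPs relative to FAPs and 0.13 in injured FAPs relative to ASCs, and Lamb1 and Lamb2 in ASCs relative to FAPs to 0.52 and 0.39, which were not called. Lama2, Lama4 and Lamc1 came to 0.76, 0.95 and 0.97 with it and kept their calls, as they did with edgeR and DESeq2.

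Per kilobase of exon, which makes chains comparable, the alpha chains summed to 7897 ± 845 in ASCs, 3977 ± 200.4 in FAPs and 2333 ± 79.0 in injured FAPs (mean ± SD, n = 3, 2 and 3). The beta chains summed to 11461 ± 1306 in ASCs, 7338 ± 65.4 in FAPs and 3676 ± 95.0 in injured FAPs. As deposited, both sums were highest in ASCs and lowest in injured FAPs. Under quantile normalization the alpha chains tested summed to 5622 ± 504 in ASCs, 4840.2 ± 217 in FAPs and 2626 ± 29.3 in injured FAPs. The beta chains then summed to 8102 ± 330.4 in ASCs, 8603 ± 281 in FAPs and 4302 ± 56.2 in injured FAPs, with ASCs and FAPs overlapping. The share of Lama2 in the alpha chains was 61.1, 57.3 and 57.9 in ASCs, 61.0 and 58.05 in FAPs and 37.8, 33.0 and 36.6 in injured FAPs (in %). The share of Lama4 was 38.8, 42.6 and 42.0 in ASCs, 35.3 and 37.7 in FAPs and 61.4, 66.3 and 62.6 in injured FAPs (in %). Lama2 was the larger in every ASC and FAP library and Lama4 in every injured FAP library. The share of Lamb1 in the beta chains was 25.8, 29.5 and 28.3 in ASCs, 27.4 and 25.0 in FAPs and 39.7, 39.4 and 40.4 in injured FAPs (in %), higher in injured FAPs than in any other library compared.

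**Figure D3:**
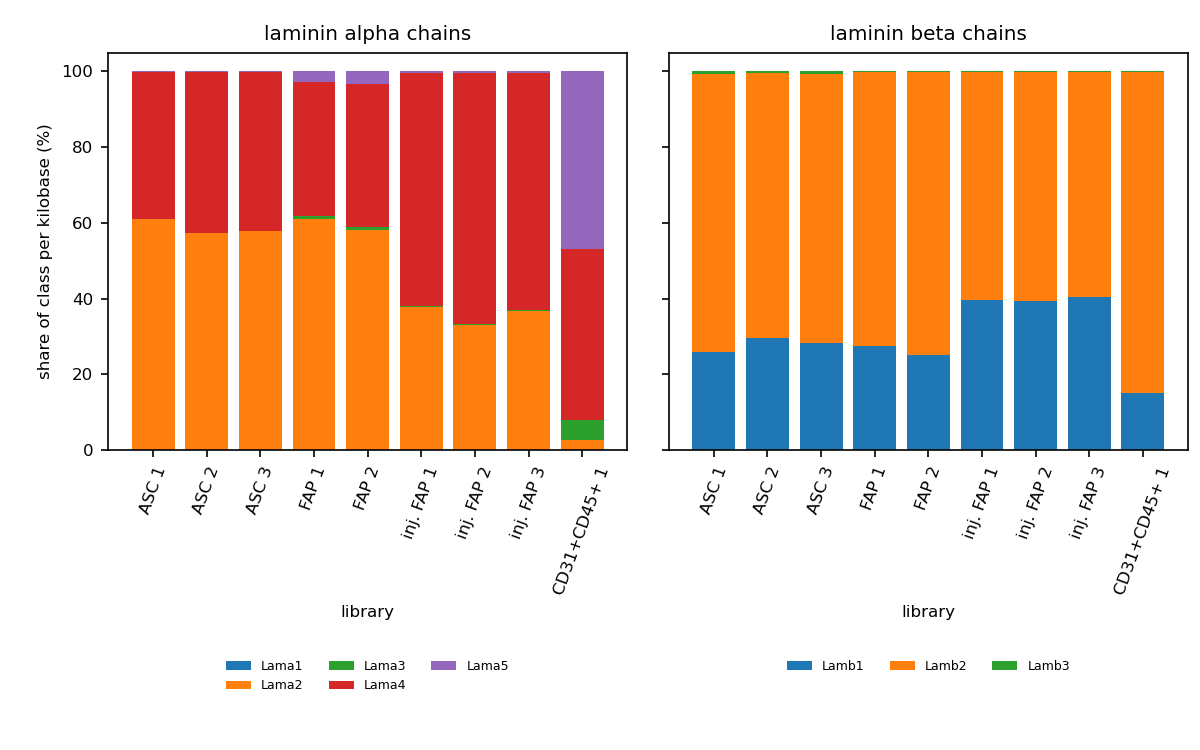
Share of each chain in the summed values per kilobase of its class (y axis, %) in the 9 libraries (x axis), with 1 panel each for alpha and beta chains. The Lama4 share lies between 35.3 and 42.6% in ASCs and FAPs and between 61.4 and 66.3% in injured FAPs.

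Among the integrin alpha subunits that bind fibronectin and other RGD ligands, Itga5, the fibronectin receptor subunit, was at 31751, 18842 and 18335 in ASCs, 7312 and 7643 in FAPs and 22849, 22281 and 21217 in injured FAPs. ASCs and injured FAPs overlapped, and both stood above FAPs. The Itga5 log2 fold change was 1.57 (SE 0.21, limma adjusted p = 0.000103) in ASCs relative to FAPs, 1.56 (SE 0.21, limma adjusted p = 8.56e-05) in injured FAPs relative to FAPs and -0.01 (SE 0.18, limma adjusted p = 0.974) in injured FAPs relative to ASCs. Under quantile normalization the first became 0.80, still called, and the last 0.76 (limma adjusted p = 0.000209).

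Itgav, which pairs with several beta subunits and can activate latent TGF-beta, was at 6178, 3152 and 4401 in ASCs, 2593 and 2395 in FAPs and 6732, 6466 and 7397 in injured FAPs. Injured FAPs were the highest and FAPs the lowest, and the groups did not overlap. The Itgav log2 fold change was 1.46 (SE 0.22, limma adjusted p = 0.000207) in injured FAPs relative to FAPs, 0.82 (SE 0.22, limma adjusted p = 0.00803) in ASCs relative to FAPs and 0.64 (SE 0.20, limma adjusted p = 0.0149) in injured FAPs relative to ASCs. The call in ASCs relative to FAPs was lost without FAP replicate 2 (0.77, limma adjusted p = 0.0601) and under quantile normalization (0.38), and without ASC replicate 1 the value was 0.58, under the threshold. In injured FAPs relative to ASCs, leaving out ASC replicate 2 (0.39) or the injured FAP replicate 3 (0.58, limma adjusted p = 0.0571) ended the call.

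Itga8, a partner of beta1 in contractile and stromal cells, was at 101, 88.3 and 121 in ASCs, 551 and 568 in FAPs and 136, 152 and 192 in injured FAPs. FAPs stood above the other groups. The Itga8 log2 fold change was -2.44 (SE 0.19, limma adjusted p = 3.52e-06) in ASCs relative to FAPs and -1.81 (SE 0.19, limma adjusted p = 2.06e-05) in injured FAPs relative to FAPs. In injured FAPs relative to ASCs it was 0.62 (SE 0.17, limma adjusted p = 0.00910), and it was under the threshold without ASC replicate 2 (0.51), without injured FAP replicate 3 (0.48) and under quantile normalization (0.39).

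The promoters of the 3 subunits with a mean over 1000 in the 8 libraries compared that were called higher in injured FAPs relative to FAPs, and of the 2 laminin chains with such a mean called lower, are shown to let these genes be compared in sequence. They were chosen after the values were seen. Each window runs from 250 bases before to 50 after a RefSeq start (GRCm38.p6), 5′ to 3′, with capitals marking GC boxes (GGGCGG on either strand). The windows are Itga5 chr15:103366742-103367041, minus strand, Itgav chr2:83724147-83724446, plus strand, Itgb1 chr8:128685404-128685703, plus strand, Lama2 chr10:27616893-27617192, minus strand and Lamb2 chr9:108479612-108479911, plus strand.
Itga5: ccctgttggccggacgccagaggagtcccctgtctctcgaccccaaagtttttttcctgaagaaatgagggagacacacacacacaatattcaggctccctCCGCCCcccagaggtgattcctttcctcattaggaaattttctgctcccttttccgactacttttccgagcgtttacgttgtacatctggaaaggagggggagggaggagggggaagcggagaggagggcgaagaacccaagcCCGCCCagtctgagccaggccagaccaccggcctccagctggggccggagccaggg
Itgav: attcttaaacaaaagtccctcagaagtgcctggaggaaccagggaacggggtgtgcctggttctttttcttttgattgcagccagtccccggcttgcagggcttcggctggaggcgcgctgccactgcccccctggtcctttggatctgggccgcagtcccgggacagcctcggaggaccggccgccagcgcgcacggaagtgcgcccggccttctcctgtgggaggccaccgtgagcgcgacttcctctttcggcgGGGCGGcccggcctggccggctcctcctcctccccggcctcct
Itgb1: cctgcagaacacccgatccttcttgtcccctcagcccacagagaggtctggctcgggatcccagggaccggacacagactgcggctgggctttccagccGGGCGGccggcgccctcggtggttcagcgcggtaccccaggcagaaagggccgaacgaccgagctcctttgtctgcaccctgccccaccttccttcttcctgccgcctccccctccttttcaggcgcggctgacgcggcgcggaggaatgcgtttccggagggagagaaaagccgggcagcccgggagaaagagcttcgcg
Lama2: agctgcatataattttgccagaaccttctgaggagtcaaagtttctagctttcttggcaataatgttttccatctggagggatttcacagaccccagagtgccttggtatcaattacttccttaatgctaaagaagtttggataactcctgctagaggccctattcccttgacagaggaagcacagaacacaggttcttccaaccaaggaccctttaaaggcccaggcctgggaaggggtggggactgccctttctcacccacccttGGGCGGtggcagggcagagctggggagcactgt
Lamb2: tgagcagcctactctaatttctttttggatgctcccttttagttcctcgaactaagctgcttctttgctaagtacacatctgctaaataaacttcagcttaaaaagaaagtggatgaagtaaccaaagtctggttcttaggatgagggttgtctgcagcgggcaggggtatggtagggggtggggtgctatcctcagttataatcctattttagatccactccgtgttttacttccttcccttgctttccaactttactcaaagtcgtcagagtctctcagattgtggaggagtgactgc

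The window of Itga5 held 2 GC boxes, those of Itgav, Itgb1 and Lama2 1 each, and that of Lamb2 none. The share of G and C was 58.7% for Itga5, 67.3% for Itgav, 67.3% for Itgb1, 50.3% for Lama2 and 44.0% for Lamb2, and 53.8% over all windows. Of the 42 genes, 27 had a window, and for 24 it lay within 200 bases of the start of the main GENCODE transcript. In these 24, searched on both strands, GGGCGG was found in 12, the AP-1 letters TGANTCA in 1, the TEAD letters GGAATG in 2, and the TATA box TATAAA and the NF-kB letters (3 G, any 2 bases, 3 T and 2 C) in 0. Over all 32851 windows the shares were 35.7% for GGGCGG, 7.81% for TGANTCA, 14.7% for GGAATG, 13.6% for TATAAA and 1.63% for the NF-kB letters. The motifs were chosen after the values were seen, and a match describes letters only.

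Of the 4 collagen receptor alpha subunits, 4 were called lower in injured FAPs relative to FAPs, where 27.7% of all genes tested were. Itga1, a receptor of basement membrane and fibrillar collagens, was at 180.5, 177 and 167 in ASCs, 1176 and 898 in FAPs and 428, 454 and 415 in injured FAPs. FAPs were highest, injured FAPs intermediate and ASCs lowest, with no overlap. The Itga1 log2 fold change was -2.55 (SE 0.14, limma adjusted p = 3.46e-07) in ASCs relative to FAPs, -1.25 (SE 0.14, limma adjusted p = 2.92e-05) in injured FAPs relative to FAPs and 1.30 (SE 0.13, limma adjusted p = 7.81e-06) in injured FAPs relative to ASCs.

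Itga10, best known from cartilage, was at 76.4, 57.8 and 96.7 in ASCs, 453 and 539 in FAPs and 141, 111 and 137 in injured FAPs, in the same order. The Itga10 log2 fold change was -2.70 (SE 0.23, limma adjusted p = 5.40e-06), -1.93 (SE 0.23, limma adjusted p = 4.18e-05) and 0.77 (SE 0.20, limma adjusted p = 0.00703) in those 3 comparisons, and the last was not called without ASC replicate 2 (0.58) or under quantile normalization (0.54). Of its 5044 exon bases, 1739 are shared with another annotated gene, so its reads are uncertain. Itga11, a fibrillar collagen receptor of fibroblasts, was at 6039, 4255 and 6969 in ASCs, 5690.2 and 7104 in FAPs and 1988, 1924 and 1919.8 in injured FAPs. ASCs and FAPs overlapped and injured FAPs lay below both. The Itga11 log2 fold change was -1.71 (SE 0.18, limma adjusted p = 2.03e-05) in injured FAPs relative to FAPs, -1.54 (SE 0.16, limma adjusted p = 1.55e-05) in injured FAPs relative to ASCs and -0.17 (SE 0.18, limma adjusted p = 0.432) in ASCs relative to FAPs, where quantile normalization gave a call (-0.74) and the value was 0.03 without ASC replicate 2.

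Itga2, another collagen receptor, was at 684, 563 and 631 in ASCs, 863 and 987 in FAPs and 528, 517 and 579 in injured FAPs. FAPs stood above both other groups, which overlapped. The Itga2 log2 fold change was -0.77 (SE 0.12, limma adjusted p = 0.000337) in injured FAPs relative to FAPs. It was -0.56 (SE 0.12, limma adjusted p = 0.00281) in ASCs relative to FAPs, just under the fold threshold (called at -0.67 under quantile normalization, -0.77 with a common 75th percentile, -0.59 with the replicate block, -0.61 with edgeR, -0.63 without ASC replicate 1 and -0.66 without FAP replicate 1), and -0.21 (SE 0.11, limma adjusted p = 0.124) in injured FAPs relative to ASCs.

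Of the laminin receptor alpha subunits, Itga6 was at 105, 30.6 and 27.6 in ASCs, 354 and 258 in FAPs and 388, 377 and 432 in injured FAPs. ASCs were below both FAP groups, with ASC replicate 1 above the other ASC libraries. The Itga6 log2 fold change was -2.73 (SE 0.46, limma adjusted p = 0.000570) in ASCs relative to FAPs, 3.12 (SE 0.41, limma adjusted p = 7.68e-05) in injured FAPs relative to ASCs and 0.40 (SE 0.46, limma adjusted p = 0.465) in injured FAPs relative to FAPs. Without ASC replicate 1 the first 2 were -3.33 and 3.73.

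Itga7, the main laminin receptor subunit of muscle fibres, was at 308, 271 and 442 in ASCs, 916 and 879.6 in FAPs and 474, 403 and 497 in injured FAPs. FAPs stood above the other groups, which overlapped. The Itga7 log2 fold change was -1.43 (SE 0.19, limma adjusted p = 0.000124) in ASCs relative to FAPs, -0.98 (SE 0.19, limma adjusted p = 0.00126) in injured FAPs relative to FAPs and 0.45 (SE 0.17, limma adjusted p = 0.0383) in injured FAPs relative to ASCs, the last under the fold threshold but called without ASC replicate 3 (0.66). Itga3, a laminin receptor of epithelia, was at 32.9, 6.80 and 5.02 in ASCs, 0 and 0 in FAPs and 51.8, 57.3 and 31.3 in injured FAPs. Both FAP libraries were at 0. Against the floor of 3 reads per library, ASCs would be at least 5.23-fold higher (2.07-fold without ASC replicate 1) and injured FAPs at least 16.4-fold higher. These bounds hold only if the FAP zeros are measured levels, which was not tested. Of the endothelial markers, Plvap was also at 0 in both FAP libraries, where Cdh5 was at 1438 and 686 and Pecam1 at 195 and 0. ASCs and injured FAPs overlapped for Itga3, and their called difference was lost without ASC replicate 2 or 3 or injured FAP replicate 1 or 2 (1.70, 1.51, 1.89 and 1.82).

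Itga9, which binds tenascin and related ligands, was at 2932, 2203 and 3219 in ASCs, 2061 and 2465 in FAPs and 1530.0, 1503 and 1400.3 in injured FAPs. Injured FAPs lay below every other library. The Itga9 log2 fold change was -0.61 (SE 0.15, limma adjusted p = 0.00553) in injured FAPs relative to FAPs and -0.90 (SE 0.14, limma adjusted p = 0.000219) in injured FAPs relative to ASCs, and 0.29 (SE 0.15, limma adjusted p = 0.131) in ASCs relative to FAPs, which became -0.08 under quantile normalization. Without FAP replicate 2 the first was -0.48 (limma adjusted p = 0.0689), and it was -0.57 without injured FAP replicate 3 and with edgeR.

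Itga4, the receptor subunit for Vcam1 on leukocytes and other cells, was at 1.32, 5.66 and 1.26 in ASCs, 0 and 0 in FAPs and 28.2, 39.5 and 25.9 in injured FAPs. Injured FAPs stood above the other groups. They were at least 10.9-fold higher than FAPs if the FAP zeros are measured levels, which was not tested. ASCs were near the floor, with 1, 5 and 1 reads, so no fold is given for ASCs relative to FAPs although limma called it, a call lost under 9 alternatives.

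Itgb1, the common partner of the collagen, laminin and fibronectin receptors, was at 11842, 11088 and 11546 in ASCs, 10353 and 9221 in FAPs and 14553, 14369 and 16267 in injured FAPs. Injured FAPs were the highest, and FAPs the lowest. The Itgb1 log2 fold change was 0.62 (SE 0.11, limma adjusted p = 0.000473) in injured FAPs relative to FAPs, and without FAP replicate 2 or injured FAP replicate 3 it was 0.54 and 0.57, and with a common 75th percentile 0.53, all under the threshold. In ASCs relative to FAPs it was 0.23 (SE 0.11, limma adjusted p = 0.0780), and under quantile normalization it changed sign to -0.43 (limma adjusted p = 0.00369), with ASCs below FAPs. It was 0.39 (SE 0.09, limma adjusted p = 0.00416) in injured FAPs relative to ASCs, where quantile normalization gave a call (1.07).

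Itgb5, a partner of Itgav, was at 7147, 6468 and 7013 in ASCs, 8734 and 9115 in FAPs and 4649, 4652 and 4412 in injured FAPs. FAPs were highest and injured FAPs lowest, with no overlap. The Itgb5 log2 fold change was -0.97 (SE 0.09, limma adjusted p = 9.75e-06) in injured FAPs relative to FAPs, -0.38 (SE 0.09, limma adjusted p = 0.00508) in ASCs relative to FAPs and -0.59 (SE 0.08, limma adjusted p = 0.000114) in injured FAPs relative to ASCs. The last was at the threshold, and edgeR (-0.50) and DESeq2 (-0.58) did not call it. It was also not called without ASC replicate 1 (-0.56), ASC replicate 3 (-0.57) or injured FAP replicate 3 (-0.56), with a common 75th percentile (-0.47) or under quantile normalization (-0.19). The value in ASCs relative to FAPs was called at -0.96 under quantile normalization and at -0.59 with a common 75th percentile.

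Itgb3, a partner of Itgav and of the platelet subunit Itga2b, was at 1616, 1502 and 1828 in ASCs, 1002 and 1048 in FAPs and 727, 570.4 and 709 in injured FAPs. The order was ASCs, FAPs and injured FAPs, with no overlap. The Itgb3 log2 fold change was 0.68 (SE 0.13, limma adjusted p = 0.00135) in ASCs relative to FAPs, -0.62 (SE 0.13, limma adjusted p = 0.00201) in injured FAPs relative to FAPs and -1.30 (SE 0.12, limma adjusted p = 5.23e-06) in injured FAPs relative to ASCs. The second was -0.51 without injured FAP replicate 2 and -0.57 with edgeR, both under the threshold. The first was 0.45 under quantile normalization and 0.47 with a common 75th percentile, and was then not called.

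Itgb4, the partner of Itga6 in hemidesmosomes, was at 125, 83.8 and 47.7 in ASCs, 540.1 and 638 in FAPs and 459.8, 386 and 445 in injured FAPs. ASCs lay below both FAP groups. The Itgb4 log2 fold change was -2.87 (SE 0.31, limma adjusted p = 3.07e-05) in ASCs relative to FAPs, 2.42 (SE 0.28, limma adjusted p = 3.07e-05) in injured FAPs relative to ASCs and -0.45 (SE 0.31, limma adjusted p = 0.227) in injured FAPs relative to FAPs. Itgb8, another partner of Itgav, ranged from 1.32 to 3.40 in ASCs and from 59.6 to 82.7 in the other 5 libraries, and was called in both comparisons with ASCs. ASCs had 1, 3 and 2 reads, with a mean of 2.41 under the floor of 3.95. Injured FAPs were at least 15.9-fold higher than ASCs taken at the floor. Itgb6, below the mean of 10, ranged from 20.4 to 26.4 in ASCs and from 0 to 3.92 in the other 5 libraries compared.

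**Figure D4:**
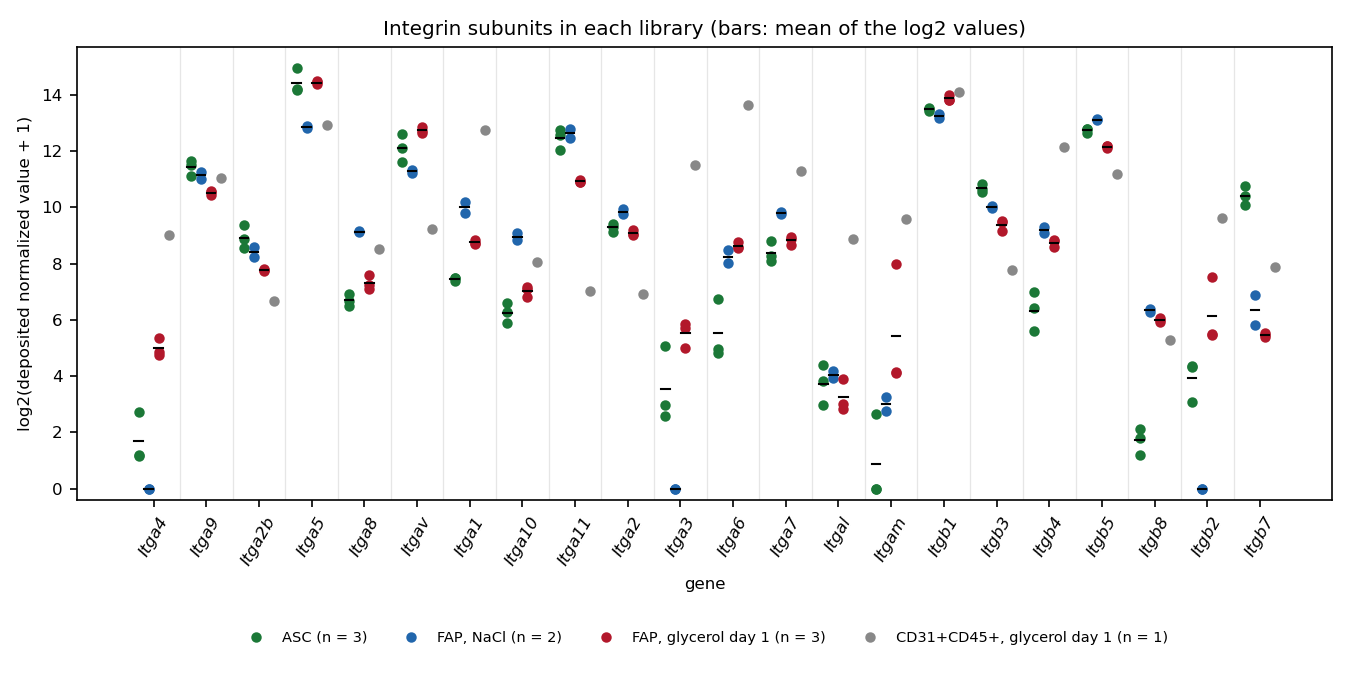
Values of 22 integrin subunits (x axis) as log2(value + 1) in each library; points are libraries, colours are groups and bars are means of the log2 values. Itga5 and Itgav lie higher in injured FAPs than in FAPs, and the 4 collagen receptor subunits Itga1, Itga2, Itga10 and Itga11 lie lower.

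Per kilobase, the alpha subunits summed to 7823 ± 2016 in ASCs, 4473 ± 279.7 in FAPs and 7086 ± 143 in injured FAPs (mean ± SD, n = 3, 2 and 3), and the beta subunits to 5867 ± 342 in ASCs, 5509 ± 98.0 in FAPs and 5533 ± 227 in injured FAPs. Under quantile normalization the alpha subunits tested summed to 5973 ± 789 in ASCs, 5318 ± 461 in FAPs and 8403 ± 106 in injured FAPs, and the beta subunits to 4739 ± 122 in ASCs, 6669 ± 94.1 in FAPs and 6559 ± 297 in injured FAPs. Itga5 was the largest part of the alpha subunits, with shares of 71.7, 68.2 and 59.3 in ASCs, 39.0 and 37.3 in FAPs and 72.1, 71.8 and 69.7 in injured FAPs (in %). The share of Itga11 was 12.0, 13.6 and 19.9 in ASCs, 26.8 and 30.6 in FAPs and 5.53, 5.47 and 5.56 in injured FAPs (in %). Itga5 took a larger share in every ASC and injured FAP library than in either FAP library, and Itga11 a larger share in FAPs. The share of Itgb1 in the beta subunits was 50.3, 52.9 and 51.0 in ASCs, 48.6 and 44.4 in FAPs and 70.3, 69.97 and 73.6 in injured FAPs (in %), highest in injured FAPs, and that of Itgb5 was 34.1, 34.7 and 34.9 in ASCs, 46.2 and 49.4 in FAPs and 25.3, 25.5 and 22.5 in injured FAPs (in %), highest in FAPs.

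Itgb2, the common beta subunit of leukocyte integrins, was at 19.8, 19.3 and 7.53 in ASCs, 0 and 0 in FAPs and 43.9, 181 and 42.7 in injured FAPs. Injured FAP replicate 2 was the highest, and both FAP libraries were at 0. If these zeros are measured levels, which was not tested, injured FAPs were at least 31.3-fold higher than FAPs (15.2-fold without injured FAP replicate 2). On the same condition, ASCs were at least 5.44-fold higher than FAPs. Itgam, its partner on myeloid cells, was at 5.27, 0 and 0 in ASCs, 5.71 and 8.47 in FAPs and 16.5, 251 and 16.8 in injured FAPs, again with injured FAP replicate 2 apart. The Itgam log2 fold change was 2.42 (SE 1.18, limma adjusted p = 0.0932) in injured FAPs relative to FAPs, 1.15 without injured FAP replicate 2 (limma adjusted p = 0.310), and edgeR called it at 3.76 (adjusted p = 0.0287). ASCs, with 4, 0 and 0 reads, had a mean under the floor, so only a bound is given. Injured FAPs were at least 23.98-fold higher than ASCs, taken at the floor (4.21-fold without injured FAP replicate 2), a difference limma called and DESeq2 gave no adjusted p. ASCs relative to FAPs was called lower without ASC replicate 1 only. Of its 4926 exon bases, 3450 are shared with another gene, so its reads are uncertain.

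Itgal, a subunit of lymphocytes and other leukocytes, was at 13.2, 6.80 and 20.1 in ASCs, 17.1 and 14.1 in FAPs and 7.06, 13.9 and 6.10 in injured FAPs, and was called in none of the 3 comparisons. Itgax, a subunit of dendritic cells and macrophages, was at 0, 1.13 and 0 in ASCs, 0 and 0 in FAPs and 2.35, 6.97 and 1.53 in injured FAPs. Itgae, a subunit of lymphocytes in epithelia, was at 1.32, 1.13 and 2.51 in ASCs, 0 and 1.88 in FAPs and 1.57, 3.10 and 1.53 in injured FAPs. None of the 3 was above 20.1 in the 8 libraries compared. The leukocyte marker list of 15 genes summed to 354, 313 and 228 in ASCs, 32.3 and 60.2 in FAPs and 550.0, 2723 and 487 in injured FAPs, and to 33032 in CD31+CD45+ cells. Injured FAP replicate 2 was the highest of the 8 libraries here too. Lyz2 was the most abundant gene of the list in each injured FAP library and Csf1r in each ASC library, and 13 of the 15, among them Ptprc, were at 0 in both FAP libraries. Of the 10 list genes tested, 9 were called higher and 0 lower in injured FAPs relative to FAPs, and 5 and 0 in ASCs relative to FAPs. In injured FAPs relative to ASCs, 8 were called higher and 2 lower. The shares of all genes tested, higher and lower, were 24.9 and 27.7%, 23.4 and 23.8%, and 25.0 and 25.8% in the same order. The calls relative to FAPs take the FAP zeros as measured levels, which was not tested. The part of leukocyte RNA in the Itgb2 and Itgam values was not tested.

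Itgb7, a leukocyte beta subunit by its known role, was at 1745, 1073 and 1361 in ASCs, 56.1 and 118 in FAPs and 45.5, 43.4 and 41.2 in injured FAPs. ASCs stood above both FAP groups, at 16.0 times the FAP mean, at 11.8 times without FAP replicate 1 and at 24.8 times without FAP replicate 2. The Itgb7 log2 fold change was 4.05 (SE 0.29, limma adjusted p = 1.88e-06) in ASCs relative to FAPs and -4.95 (SE 0.26, limma adjusted p = 1.43e-07) in injured FAPs relative to ASCs. Its log2 fold change was -0.89 (SE 0.29, limma adjusted p = 0.0205) in injured FAPs relative to FAPs, and -0.37 without FAP replicate 2 (limma adjusted p = 0.271), -0.86 without injured FAP replicate 3 (limma adjusted p = 0.0564) and -0.54 under quantile normalization, none of them called. Of the leukocyte markers, Ptprc was at 0, 1.13 and 0 in ASCs, 0 and 0 in FAPs and 11.8, 55.8 and 9.92 in injured FAPs. Csf1r was at 163, 186 and 112 in ASCs, 0 and 0 in FAPs and 38.4, 164 and 25.9 in injured FAPs. Lyz2 was at 40.8, 26.05 and 30.1 in ASCs, 0 and 0 in FAPs and 142, 725 and 109 in injured FAPs, and Cd74 at 65.9, 21.5 and 23.9 in ASCs, 0 and 0 in FAPs and 115, 575 and 103 in injured FAPs. The part of leukocyte RNA in the Itgb7 values was not tested.

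Itga2b, the platelet subunit, was at 371, 664 and 463 in ASCs, 298 and 384 in FAPs and 217, 222 and 214 in injured FAPs. Injured FAPs lay below every other library, and ASCs and FAPs overlapped. The Itga2b log2 fold change was -1.15 (SE 0.20, limma adjusted p = 0.000436) in injured FAPs relative to ASCs, and -0.63 (SE 0.22, limma adjusted p = 0.0266) in injured FAPs relative to FAPs, lost without FAP replicate 2 (-0.45, limma adjusted p = 0.203) or without any 1 injured FAP library (-0.63, -0.65 and -0.62). In ASCs relative to FAPs it was 0.52 (SE 0.22, limma adjusted p = 0.0617), and without ASC replicate 1 it was called at 0.71. The 4 platelet markers summed to 285, 183 and 228 in ASCs, 121 and 181 in FAPs and 144, 315 and 140.3 in injured FAPs, Gp1bb was the most abundant in 7 of the 8 libraries, and Pf4 was at 2.63, 2.27 and 1.26 in ASCs, 0 and 0 in FAPs and 33.7, 164 and 33.6 in injured FAPs.

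Of the genes that are no subunits, Itgbl1, a secreted protein with integrin-like repeats, was at 4832, 3177 and 3643 in ASCs, 5799.5 and 6148 in FAPs and 2054, 1752 and 1989 in injured FAPs. FAPs were highest and injured FAPs lowest. The Itgbl1 log2 fold change was -1.63 (SE 0.16, limma adjusted p = 1.11e-05) in injured FAPs relative to FAPs, -0.64 (SE 0.16, limma adjusted p = 0.00539) in ASCs relative to FAPs and -0.99 (SE 0.14, limma adjusted p = 0.000136) in injured FAPs relative to ASCs, and the second was -0.51, under the threshold, without ASC replicate 2. Itgb3bp, a centromere protein, ranged from 44.2 to 71.6 in ASCs and FAPs and from 132 to 143 in injured FAPs, and was called higher in both comparisons with injured FAPs, and in ASCs relative to FAPs under quantile normalization (1.03). Itgb1bp1 ranged from 413 to 571 and was called in none.

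Of the 9 subunits called lower in ASCs relative to FAPs, 6 were above all 8 libraries compared in CD31+CD45+ cells, where 45.1% of all 3233 genes called lower were. They were at 15675 for Lama5, 1687 for Lama3, 6847 for Itga1, 2527 for Itga7, 12858 for Itga6 and 4498 for Itgb4. The other 3 were below both FAP libraries there, as were 44.4% of those genes, at 363 for Itga8, 265 for Itga10 and 37.7 for Itgb8. Marker lists of other cell types differed between the groups as well. The 10 smooth muscle and pericyte markers summed to 5732, 3751 and 4711 in ASCs, 25090.3 and 22134 in FAPs and 10852, 10525 and 10957 in injured FAPs, and to 92522 in CD31+CD45+ cells. Of the 10, 9 were called lower in ASCs relative to FAPs and 9 in injured FAPs relative to FAPs, 8 of them in both. Of all genes tested, 23.8 and 27.7% were called lower in these 2 comparisons, which share the FAP libraries. The share of all genes lower in both was not taken. In injured FAPs relative to ASCs, 6 were higher and 2 lower, where 25.0 and 25.8% of all genes were. No gene of this list was at 0, and the most abundant was Abcc9 in ASCs, Rgs5 or Acta2 in FAPs and Cspg4 in injured FAPs.

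The 14 endothelial markers summed to 7393, 5929 and 7764 in ASCs, 7532 and 5113 in FAPs and 2426, 2562 and 2030.3 in injured FAPs, led by Tek in ASCs and FAPs and by Cdh5 in injured FAPs, with Emcn, Cldn5, Vwf and Plvap at 0 in both FAP libraries and Pecam1 at 0 in FAP replicate 2. Their median values were 23.7, 24.9 and 21.97 in ASCs, 242 and 164 in FAPs and 70.2, 101 and 70.2 in injured FAPs, and Tek alone was at 5986, 4841 and 6699.9 in ASCs, 2120.5 and 1890.0 in FAPs and 395, 367 and 365 in injured FAPs. Of the 13 endothelial markers tested, 4 were called higher and 8 lower in ASCs relative to FAPs, 3 and 7 in injured FAPs relative to FAPs, and 8 and 2 in injured FAPs relative to ASCs. The shares of all genes tested were 23.4 and 23.8%, 24.9 and 27.7%, and 25.0 and 25.8%.

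The 8 Schwann cell markers summed to 15887, 13087 and 14634 in ASCs, 16507 and 17446 in FAPs and 7262, 6218 and 6536 in injured FAPs, led by Pmp22 in all 8 libraries. Pmp22 alone was at 14573, 12080 and 13675 in ASCs, 15257 and 15366 in FAPs and 6500, 5731 and 5759 in injured FAPs. The median values of the list were 90.9, 70.2 and 65.3 in ASCs, 157 and 209 in FAPs and 64.7, 46.9 and 63.3 in injured FAPs. Of the 8 markers, 5 were called lower in ASCs relative to FAPs, 5 in injured FAPs relative to FAPs and 3 in injured FAPs relative to ASCs, and 0 higher. The 10 muscle fibre markers summed to 175, 147 and 181 in ASCs, 821 and 969 in FAPs and 301, 312 and 247 in injured FAPs, led by Tnnt3 or Acta1. Of 7 tested, 6 were called lower in ASCs and 4 in injured FAPs relative to FAPs, and 5 higher in injured FAPs relative to ASCs. The 6 satellite cell markers summed to 141, 90.6 and 113 in ASCs, 412 and 459 in FAPs and 221, 206 and 191 in injured FAPs, led by Musk, with Pax7 at 0 in all 3 ASC libraries. Of 4 tested, 3 were called lower in ASCs and 2 in injured FAPs relative to FAPs, and 3 higher in injured FAPs relative to ASCs. Of all genes tested, 23.8, 27.7 and 25.8% were called lower in the same 3 comparisons, and 25.0% were called higher in injured FAPs relative to ASCs. The part of these cell types in the subunit values was not tested.

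The 8 epithelial or mesothelial markers summed to 1079, 7.93 and 328 in ASCs, 25.7 and 37.6 in FAPs and 45.5, 47.3 and 61.0 in injured FAPs, with Krt8 the most abundant in ASC replicates 1 and 3 and Msln in the other 6 libraries, and Krt5 and Krt14 at 0 in 7 of the 8 libraries. The sum was highest in ASC replicate 1, which was also the highest ASC library for Lama5, Itga6 and Itga3, and for Itga5, Itgav and Itgb7. The epithelial chains Lama3 and Lamb3 were instead highest in ASC replicate 3, at 11.3 and 416, against 7.90 and 395 in ASC replicate 1. In ASC replicate 3, Itga6 and Itga3 were at 27.6 and 5.02, against 30.6 and 6.80 in ASC replicate 2, where the marker sum was lower. The part of epithelial or mesothelial RNA in these values was not tested. The 7 adipocyte markers summed to 894, 899 and 708 in ASCs, 813 and 204 in FAPs and 195, 258 and 174 in injured FAPs, led by Fabp4. The 5 sorting markers summed to 151439, 135975 and 135239 in ASCs, 78579 and 71445 in FAPs and 89477, 85603 and 86653 in injured FAPs, none at 0, and the 4 fibroblast markers summed to 2810805, 2263241 and 2775056 in ASCs, 1419774 and 1647581 in FAPs and 575519, 601379 and 542126 in injured FAPs, led by Col1a1.

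The counts of 5 lists of related genes are given with their shares. Over all genes tested, 23.4% were higher and 23.8% lower in ASCs relative to FAPs, 24.9 and 27.7% in injured FAPs relative to FAPs, and 25.0 and 25.8% in injured FAPs relative to ASCs. Of 19 basement membrane partners of laminin tested of 20 listed, 5 were called higher and 7 lower in ASCs relative to FAPs (26.3 and 36.8%), 0 higher and 18 lower in injured FAPs relative to FAPs (0 and 94.7%), and 0 higher and 16 lower in injured FAPs relative to ASCs (0 and 84.2%). The median log2 fold changes were -0.25, -1.37 and -1.20. Nid1, which links laminin to collagen IV, was at 145083 ± 17322 in ASCs, 59779.7 ± 3986 in FAPs and 32942 ± 1849 in injured FAPs (mean ± SD, n = 3, 2 and 3). The collagen IV chain Col4a3 was at 791 ± 98.0 in ASCs, 2047 ± 283 in FAPs and 119 ± 32.2 in injured FAPs, Col4a4 at 1091 ± 178 in ASCs, 1958 ± 77.5 in FAPs and 192 ± 8.85 in injured FAPs and Col4a5 at 6913 ± 999 in ASCs, 2606 ± 55.2 in FAPs and 913 ± 48.8 in injured FAPs. Col4a3 changed by -4.12 (SE 0.21, limma adjusted p = 3.43e-07) on the log2 scale in injured FAPs relative to FAPs, and Col4a4 by -3.34 (SE 0.14, limma adjusted p = 1.88e-07). The matricellular protein Smoc2 was at 14313 ± 2848 in ASCs, 44349 ± 2887 in FAPs and 17118 ± 926 in injured FAPs, higher in FAPs than in both other groups.

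Of 17 other receptors of laminin and matrix tested of 18 listed, 5 were higher and 7 lower in ASCs relative to FAPs (29.4 and 41.2%), 4 and 4 in injured FAPs relative to FAPs (23.5 and 23.5%), and 6 and 4 in injured FAPs relative to ASCs (35.3 and 23.5%). The medians were -0.15, 0.14 and 0.37. The hyaluronan receptor Cd44 was at 13454 ± 5409 in ASCs, 3459 ± 58.2 in FAPs and 18549.9 ± 1529 in injured FAPs, and rose by 2.42 on the log2 scale in injured FAPs relative to FAPs. Rpsa, which encodes a ribosomal protein also described as a laminin receptor, was at 30556 ± 3059 in ASCs, 15588 ± 2550.1 in FAPs and 45557 ± 1228 in injured FAPs. The proteoglycan Cspg4 was at 204 ± 17.1 in ASCs, 3921 ± 361 in FAPs and 4314 ± 395 in injured FAPs, and the syndecan Sdc3 at 376 ± 304 in ASCs, 3235 ± 260.5 in FAPs and 5332 ± 196 in injured FAPs, both low in ASCs. The collagen receptor Ddr2 was at 27889.8 ± 4792 in ASCs, 10941 ± 654 in FAPs and 13153 ± 456 in injured FAPs, higher in ASCs. The sarcoglycan Sgce was at 4716 ± 470.3 in ASCs, 3467 ± 85.0 in FAPs and 1459.7 ± 144 in injured FAPs, and the laminin alpha5 receptor Bcam at 38.6 ± 23.6 in ASCs, 524 ± 98.3 in FAPs and 205 ± 6.35 in injured FAPs, with 22648 in CD31+CD45+ cells.

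Of 19 integrin ligands outside laminins and collagens tested of 26 listed, 5 were higher and 7 lower in ASCs relative to FAPs (26.3 and 36.8%), 6 and 6 in injured FAPs relative to FAPs (31.6 and 31.6%), and 8 and 9 in injured FAPs relative to ASCs (42.1 and 47.4%). The medians were -0.24, 0.27 and -0.07. Fibronectin (Fn1), the ligand of the Itga5 receptor, was at 547905 ± 118862 in ASCs, 100345 ± 8812 in FAPs and 95429 ± 7274 in injured FAPs. It was higher in ASCs, while FAPs and injured FAPs lay near each other. Tnc, a ligand of Itga9, was at 375 ± 139.6 in ASCs, 9747 ± 456 in FAPs and 38034 ± 2818 in injured FAPs, and Spp1 at 16.1 ± 17.3 in ASCs, 65.7 ± 13.5 in FAPs and 1366 ± 179 in injured FAPs, both highest in injured FAPs. Postn was at 49489 ± 4256 in ASCs, 5317 ± 799 in FAPs and 29066 ± 3003 in injured FAPs, with a log2 fold change of 3.22 (SE 0.14, limma adjusted p = 9.94e-08) in ASCs relative to FAPs and 2.45 (SE 0.14, limma adjusted p = 6.06e-07) in injured FAPs relative to FAPs. Comp was at 164 ± 43.1 in ASCs, 11386 ± 2669 in FAPs and 3881 ± 138 in injured FAPs, highest in FAPs, and Fbln5 at 5133 ± 1141 in ASCs, 5971 ± 344 in FAPs and 1323 ± 145 in injured FAPs, lowest in injured FAPs.

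Of 37 adhesion adaptors and kinases tested of 40 listed, 8 were higher and 10 lower in ASCs relative to FAPs (21.6 and 27.0%), 8 and 9 in injured FAPs relative to FAPs (21.6 and 24.32%), and 10 and 8 in injured FAPs relative to ASCs (27.0 and 21.6%). The medians were -0.13, 0.17 and 0.13. All 6 shares of this list were within 5 points of those of all genes. The actin crosslinker Actn1 was at 521 ± 189 in ASCs, 3452 ± 197 in FAPs and 12129 ± 244 in injured FAPs, and the talin Tln2 at 901 ± 87.6 in ASCs, 1814 ± 7.03 in FAPs and 4568 ± 224 in injured FAPs, both highest in injured FAPs. Lims2, a partner of integrin-linked kinase, was at 1722 ± 379 in ASCs, 3600.0 ± 77.8 in FAPs and 197 ± 22.7 in injured FAPs, and the tensin Tns2 at 9378 ± 781 in ASCs, 13036 ± 1249 in FAPs and 3438 ± 413 in injured FAPs, both lowest in injured FAPs. The kinase Ptk2b was at 786 ± 92.7 in ASCs, 94.5 ± 31.4 in FAPs and 40.8 ± 8.59 in injured FAPs, and paxillin (Pxn) at 10681 ± 1630.3 in ASCs, 4178 ± 185 in FAPs and 4167 ± 343 in injured FAPs, both highest in ASCs. Parvb was at 17.7 ± 13.2 in ASCs, 187 ± 22.8 in FAPs and 321 ± 36.3 in injured FAPs, lowest in ASCs, with 9068 in CD31+CD45+ cells.

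Of 8 tetraspanins tested of 9 listed, 2 were higher and 5 lower in ASCs relative to FAPs (25.0 and 62.5%), 3 and 2 in injured FAPs relative to FAPs (37.5 and 25.0%), and 5 and 0 in injured FAPs relative to ASCs (62.5 and 0%). The medians were -0.80, 0.10 and 0.90. Cd63 was at 7531 ± 656 in ASCs, 3641 ± 27.3 in FAPs and 8357 ± 362 in injured FAPs, lowest in FAPs, and Tspan4 at 1244 ± 231 in ASCs, 773 ± 40.3 in FAPs and 3907 ± 783 in injured FAPs, highest in injured FAPs. Cd9 was at 2816 ± 357 in ASCs, 7498 ± 100.1 in FAPs and 3722 ± 403 in injured FAPs, highest in FAPs, Cd81 at 8948 ± 568 in ASCs, 15499.7 ± 200.6 in FAPs and 7059 ± 265 in injured FAPs, also highest in FAPs, and Tspan9 at 711 ± 61.4 in ASCs, 2225 ± 159.8 in FAPs and 2419 ± 168 in injured FAPs, lowest in ASCs.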

How the data were processed

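The authors deposited 1 table of normalized signal values per gene, made from read counts divided by a factor per library. The methods name HISAT2 alignment to mm10 and featureCounts of Subread on a UCSC annotation; strand and multi-mapping settings are not given in the sources used here. Low values in each library were whole multiples of 1 step, and 100% of values came out as whole reads within 0.01 of a read. The 2 empty columns were not used.

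limma 3.58.1 (R 4.3.3, trend) was fitted to log2(value + 1) for the 13601 genes whose mean reached 10, 3 groups in 1 fit over 8 libraries, with 5 residual degrees of freedom and Benjamini-Hochberg adjustment. Replicates differed beyond counting error, with a chi-square per degree of freedom of 10.9 to 69.4 between libraries of a group. On the recovered reads, edgeR 4.0.16 called 6450, 7303 and 7000 genes in ASCs relative to FAPs, injured FAPs relative to FAPs and injured FAPs relative to ASCs, and DESeq2 1.42.0 called 6412, 7227 and 6865. Exon lengths came from GENCODE M21, matched by symbol. Levels between genes were compared per kilobase of exon.

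Members with a mean of at least 100 and a call in any comparison are given in every library, leukocyte and platelet integrins whatever their level. Of each list, called genes with a mean of 100 or more were ranked by fold change, and the top 2 per direction and comparison are given. Other members are given by range; for Itga3, Itga4 and the markers Ptprc, Csf1r, Lyz2, Cd74 and Tek the values in every library were added after they were seen, as were ratios without 1 library and sums under other scalings. The members and lists were chosen with earlier results of these data known. Promoter windows and their motifs were added after the values were seen. Promoter sequences are from RefSeq. 1 laminin chain is not reported here. Floors cover counting error only. Alternatives were other pseudocounts, filters, scalings, thresholds, tools, a replicate block and leaving out each library.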

Additional observations from a re-analysis of the deposited data

Results flagged for a closer look

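The single CD31+CD45+ library entered no comparison, and 9 of the 42 genes were at least 5 times as high there as in the highest of the other 8 libraries and had more than 3 reads, limits chosen after the values were seen. Over the whole table, 1155 of 26214 genes (4.41%) passed the same limits. Itgad, with 3 reads there and 0 in the other 8 libraries, did not. Among laminin chains and laminin receptor subunits, Lama5 was at 15675, Itga6 at 12858, Itga3 at 2885 and Itgb4 at 4498. The collagen receptor subunit Itga1 was at 6847. Of the integrins of blood cells, Itga4 was at 523, Itgal at 468, Itgax at 152 and Itgae at 25.1. With 1 library there is no replicate check on these values, and its RNA held markers of several cell types. The endothelial list summed to 392749.6 in it, smooth muscle and pericyte to 92522, adipocyte to 42817, sorting markers to 36591, fibroblast to 34556 and leukocyte to 33032. Fabp4 alone was at 42779 of the adipocyte sum, where the median of the 7 genes was 4.71 and Adipoq was at 4.71. The sorting sum was mostly Ly6a at 17672 and Cd34 at 17085, with Pdgfra at 119 and Pdpn at 149. These 2 sums therefore rest on few genes.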

How the results depend on the processing

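The counts of integrin and laminin genes kept within 1.5 times their value under most alternatives. For ASCs relative to FAPs, the 14 higher became 7 under quantile normalization and 9 with a log2 fold change beyond 1. For injured FAPs relative to FAPs, the 7 higher became 4 with a mean of at least 50, and the 18 lower became 11 beyond 1. For injured FAPs relative to ASCs, the 13 higher became 8 with a mean of at least 50. Genes called over the whole table fell to 4177, 4622 and 4455 beyond 1. The filter tests fewer genes and the fold limit is stricter by construction; for quantile normalization the cause was not tested. Of the single-gene values under the alternatives, 25 newly passed the threshold, 83 no longer did, 16 changed sign and 1958 kept direction and side. Calls held in every alternative that tested the gene for 15 of 24 in ASCs relative to FAPs, 17 of 25 in injured FAPs relative to FAPs and 16 of 28 in injured FAPs relative to ASCs. Of the called genes, 4, 3 and 5 have a mean under 50 and were not tested with that filter. In injured FAPs relative to FAPs these were Itga3, Itga4 and Itgb2, all at 0 in both FAP libraries.

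The changes of sign fell on 9 values, and their cause was not tested. Under quantile normalization, ASCs relative to FAPs came to -0.152 for Lamb2, -0.431 for Itgb1, -0.0822 for Itga9 and 0.175 for Itgal, injured FAPs relative to FAPs to 0.0246 for Itgb8 and -0.0833 for Lama4, and injured FAPs relative to ASCs to 0.757 for Itga5. With a common 75th percentile Lama4 came to -0.0666 and Itga5 to 0.107, and with edgeR Itga5 to 0.0327, in the same comparisons. Leaving out 1 library at a time gave -0.334 to 0.0290 for Itga11 and -0.655 to 0.0633 for Itgal in ASCs relative to FAPs, -0.0260 to 0.219 for Itgb1bp1 in injured FAPs relative to FAPs and -0.146 to 0.250 for Itga5 in injured FAPs relative to ASCs.

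With the replicate block, 14 genes were higher and 11 lower in ASCs relative to FAPs, 7 and 18 in injured FAPs relative to FAPs, and 14 and 15 in injured FAPs relative to ASCs, and 6287, 7046 and 6861 genes were called over the whole table. Lama4 in injured FAPs relative to FAPs came to -0.00560. Same-numbered libraries had correlations of their deviations from group means between -0.0545 and 0.0446. With 2 or 3 libraries per group, such correlations cannot show whether the replicate numbers pair the libraries. The deviations of the 2 FAP libraries mirror each other, so ASC replicate 1 gave 0.0446 with FAP replicate 1 and -0.0446 with FAP replicate 2. Leaving out 1 library at a time gave 12 to 14, 6 to 7 and 9 to 14 genes higher, 9 to 12, 15 to 18 and 14 to 15 lower, and 5653 to 6683, 6323 to 7358 and 6582 to 7190 called over the whole table, in the same order of comparisons. It leaves FAPs with 1 library in 2 cases, assumed to vary like the other groups. Itga3, Itga4 and Itgam had few reads in some libraries, and the part of depth in their values was not tested.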
